A study of Mus musculus with 3 samples.

Results

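Complement components and receptors were described as 9 genes: C1qa, C1qb, C1qc, C4b, C3, Cfb, Cfp, C3ar1 and C5ar1. They were chosen by symbol from the gene list shared by 3 single-cell libraries and make up 9 of 31053 mouse genes measured.

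Complement is a set of plasma proteins that tag particles and cells for uptake. C1q, built from the chains encoded by C1qa, C1qb and C1qc, starts the classical route, which cleaves C4 (C4b encodes it in the mouse). Every route meets at C3, which the alternative route amplifies with factor B (Cfb) and properdin (Cfp), and the cleavage fragments C3a and C5a act on myeloid cells through the receptors C3ar1 and C5ar1. The liver makes most plasma complement, while macrophages and fibroblasts are known local sources in tissue.

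Each condition was 1 library. Co-Mac and VD-Mac were marrow of C57/BL6 mice cultured with GM-CSF for 7 days, after which VD-Mac received 1,25 dihydroxy-cholecalciferol (vitamin D3, VD3) at 1 μM for 24 h and Co-Mac no treatment. The hSTSG library came from grafts of human split-thickness skin that lay subcutaneously in C57BL6/J mice until day 14. Its 5 mice were pooled. Which hashtag marked which mouse is not given in the labels. Cells were not split by hashtag here, so the pool was treated as 1 sample. The age of the mice is not given either. Only mouse genes are in the files, so human cells of the graft were not analysed here, and whether human RNA added to mouse counts was not tested.

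After filtering, Co-Mac held 7257 cells, VD-Mac 8825 and hSTSG 2144, with median depths of 15804, 12089 and 6637.5 UMIs (unique molecules) per cell. Kept barcodes with the same sequence numbered 15 between the cultures, 3 between Co-Mac and hSTSG and 6 between VD-Mac and hSTSG. Cells were placed in ranges of marker scores, called classes below, from 8 markers a class with no complement gene among them. These are gates and not proven cell types. The cultures are titled macrophages, but the largest class in each was dendritic (Flt3, Zbtb46, Ccl22 and others): 37.2% of Co-Mac and 36.5% of VD-Mac cells, against 30.1% and 18.6% in the monocyte-macrophage class. In hSTSG the monocyte-macrophage class held 918 cells, the neutrophil class 494, the T class 264, the fibroblast class 136, the dendritic class 55 and the endothelial class 22. No class was given to 26.2% of Co-Mac, 38.5% of VD-Mac and 10.3% of hSTSG cells. These cells were shallower than the whole, with medians of 7208.5, 3597 and 2957 UMIs. Cells whose lead over the second class lay between 0.1 and 0.2, close to the cut of 0.15, numbered 913, 1355 and 105.

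Levels below are in CPM (UMIs of a gene over all gene UMIs of the class, scaled to 1000000), and brackets hold 95% intervals. With 1 library a condition these intervals cover counting error only, and no test between conditions was possible. Differences between mice or dishes cannot be told apart from treatment. The graft mice were not separated by hashtag, so no test across them was run. A gene is called up or down when its level differs at least 2-fold and reaches 10 CPM in the group with more of it. Levels are compared across classes and libraries for 1 gene at a time, never between genes.

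In the graft, C1q transcripts lay almost entirely in the monocyte-macrophage class. C1qa stood at 2039 CPM [2015, 2064] there, and at 17.2 in the neutrophil, 9.22 in the T, 8.75 in the fibroblast, 7.75 in the endothelial and 4.98 in the dendritic class. C1qb stood at 1609 CPM in the monocyte-macrophage class and from 1.24 to 18.7 in the others, and C1qc at 1176 and from 2.58 to 8.97. The top class is apart from the rest for all 3 chains, and the intervals of the lower classes overlap from each to the next. After thinning every cell to 2000 UMIs, C1qa was found in 64.3% of monocyte-macrophage cells (median depth before thinning 11268.5 UMIs) and in 2.67% of T cells (5648 UMIs), a class that should lack it. The corresponding shares were 66.4% and 2.29% for C1qb and 61.2% and 0.763% for C1qc. All 3 chains were found together in 50.6% of monocyte-macrophage cells and in 0% of T cells.

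C3, the protein on which all routes meet, was highest in the graft fibroblast class. Its level was 6112 CPM [6031, 6194] in fibroblasts, 538 [499, 579] in neutrophils, 337 [327, 348] in monocyte-macrophage cells, 20.7 in T cells, 14.9 in dendritic and 10.3 in endothelial cells. The first 3 classes have intervals that do not overlap, and the last 3 overlap. Cells of the fibroblast class varied: the quartiles of their own C3 level were 1972, 4948 and 8877 CPM, and 1 cell held 1028 C3 UMIs. Thinned shares with a C3 UMI were 92.5% of fibroblasts, 54.4% of neutrophils and 43.6% of monocyte-macrophage cells, against 6.11% of T cells.

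C4b and Cfb were also highest in the fibroblast class. C4b, the C4 of the classical route, was at 1300.0 CPM [1263, 1338] in fibroblasts, 67.5 [63.1, 72.1] in monocyte-macrophage cells and 11.2 [6.27, 18.5] or less in every other class. Cfb was at 150.5 CPM [138, 164] in fibroblasts, 13.4 [11.5, 15.6] in monocyte-macrophage cells and at most 2.58 elsewhere, with 0 UMIs in neutrophils. The fibroblast class held 79.9% of the C3, 83.0% of the C4b and 74.4% of the Cfb UMIs of the whole library, from 6.34% of its cells and 15.6% of its UMIs. C4b is near in sequence to C4a, which is not in the files, and how reads of the pair were shared out was not tested.

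Fibroblast over monocyte-macrophage differences were large in both directions. On the log2 scale C3 differed by 4.18 [4.13, 4.23], C4b by 4.27 [4.16, 4.37] and Cfb by 3.49 [3.24, 3.75], so 3 of 9 members were up, where 21.2% of all genes were. The other 6 were down, where 23.7% of genes were: C1qa by -7.86, C1qb -7.89, C1qc -7.44, Cfp -5.33, C3ar1 -6.61 and C5ar1 -5.14. Over 5 alternatives C1qa ranged from -8.95 to -6.75, C1qb from -8.62 to -6.83 and C1qc from -7.53 to -6.44. Cfp ranged from -6.31 to -4.81, C3ar1 from -8.10 to -5.61 and C5ar1 from -6.74 to -4.96. The median over the 9 members was -5.33, beside -0.20 over all genes. Free RNA reaches every droplet. In the T class Col1a1 UMIs per C3 UMI were 0.861, in fibroblasts 2.60, in monocyte-macrophage cells 0.0586 and in neutrophils 0.0694. The ratio thus differed between classes, and the part of free RNA in their C3 levels was not tested.

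**Figure D1:**
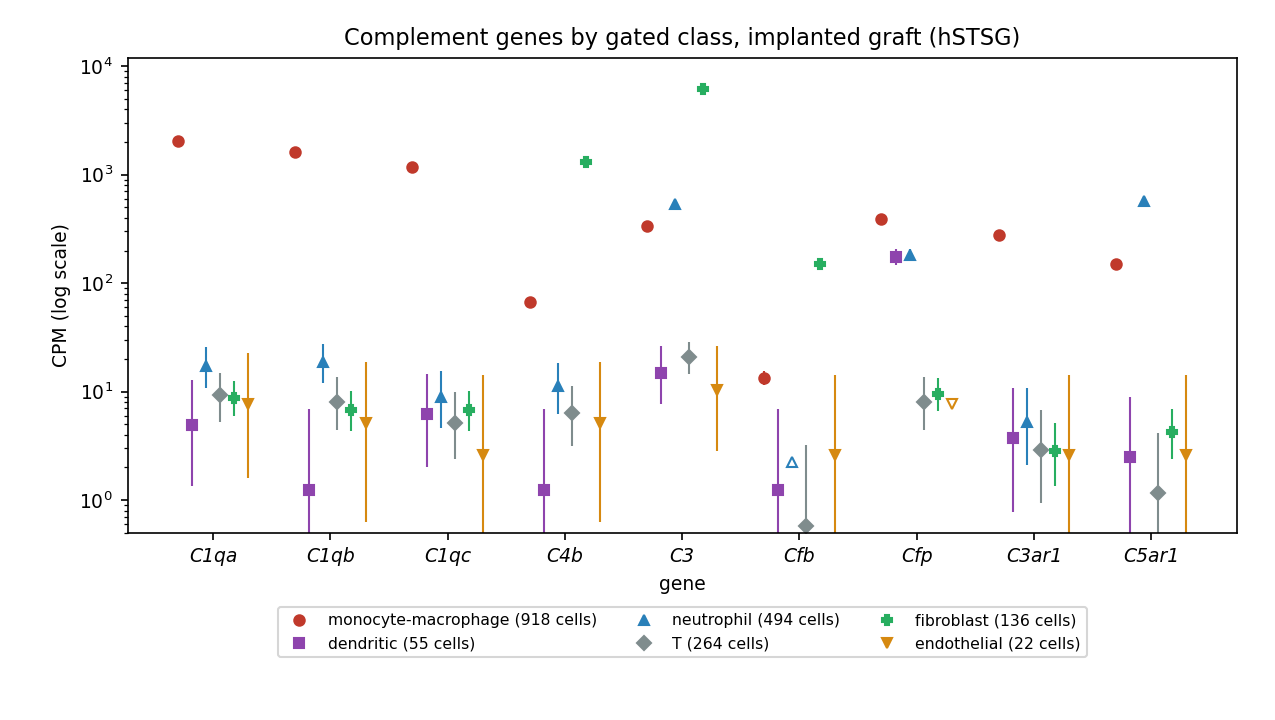
Levels of the 9 complement genes in CPM (log scale) in 6 marker-gated classes of the hSTSG library; points are levels over summed cells, bars are exact 95% Poisson intervals, and an open point marks a count of 0 and stands at the level of 3 UMIs. C1qa, C1qb and C1qc are highest in the monocyte-macrophage class (C1qa at 2039 CPM), and C4b, C3 and Cfb in the fibroblast class (C3 at 6112 CPM).

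The regulator Cfp and both receptors were myeloid. Cfp, which stabilises the alternative C3 convertase, was at 387 CPM [376, 398] in monocyte-macrophage cells, 182 [160, 207] in neutrophils and 175 [148, 207] in dendritic cells, the last 2 overlapping, and below 10 CPM in the other classes. C3ar1, the receptor of C3a, was at 276 CPM [267, 286] in monocyte-macrophage cells and at most 5.23 in any other class. C5ar1, the receptor of C5a, was highest in neutrophils at 577 CPM [537, 619], then at 149 [143, 156] in monocyte-macrophage cells, with at most 4.24 elsewhere. The receptors thus had different top classes. After thinning, C5ar1 was found in 61.5% of neutrophils and 25.4% of monocyte-macrophage cells, and C3ar1 in 0.592% and 38.1%. Background in T cells was 0.382% for each.

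Within the graft monocyte-macrophage class, gates were set on Trem2 and lipid-handling markers (Trem2 gate, 352 cells), on Cd163 and other resident-type markers (Cd163 gate, 185 cells) and on Ly6c2, Plac8 and other monocyte markers (Plac8 gate, 80 cells). C1qa was at 1757 CPM in the Trem2, 3272 in the Cd163 and 118 in the Plac8 gate. C1qb was at 1585, 2062 and 177, and C1qc at 1039, 1814 and 65.6. All 3 chains were lowest in the Plac8 gate and highest in the Cd163 gate, with no overlap of intervals. Thinned cells with all 3 chains made up 44.6%, 82.7% and 6.25% of the gates.

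C4b was at 12.5 CPM in the Trem2, 237 [218, 256] in the Cd163 and 9.53 in the Plac8 gate. Cells of the Cd163 gate varied, with quartiles of their own C4b level at 0, 34.4 and 321 CPM. After thinning, C4b was found in 2.10% of Trem2, 26.6% of Cd163 and 3.75% of Plac8 gate cells. C5ar1 was at 96.3, 220 and 195 CPM, C3ar1 at 262, 369 and 98.5, Cfp at 292, 527 and 271 and Cfb at 13.5, 18.6 and 6.35. C3 was at 309, 325 and 307 CPM, with intervals that overlap in all 3 gates. Cd163 over Trem2 gate, 2 of 9 members were up (9.96% of genes): C4b by 4.25 [3.90, 4.61] and C5ar1 by 1.19 [1.02, 1.36] on the log2 scale. None was down (4.94% of genes), and the median was 0.80 beside 0.21 over all genes. Plac8 over Trem2 gate, 1 was up (10% of genes), C5ar1 by 1.02 [0.77, 1.26], and 5 were down (13.8%): C1qa by -3.90, C1qb -3.16, C1qc -3.98, C3ar1 -1.41 and Cfb -1.08, the last with an interval of -2.57 to 0.10 that spans 0. The median was -1.08 beside 0.06. These contrasts between gates were chosen after values were seen. Neutrophil markers summed to 835 CPM in the Plac8 and 316 in the Trem2 gate (S100a8 607 and 128). Neutrophil precursor markers summed to 64.6 and 9.47, B lineage to 58.2 and 24.7 and fibroblast to 69.9 and 78.1. The part of these markers in the Plac8 over Trem2 differences was not tested.

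Since C4b was highest in graft fibroblasts, the Cd163 gate was split by UMIs of the 8 fibroblast markers, a split chosen after values were seen. C4b was at 199 CPM [162, 243] in the 52 cells with none of them and at 245 [225, 267] in the 133 with at least 1. These intervals overlap. Over the whole monocyte-macrophage class C4b was at 52.2 CPM [44.7, 60.5] in the 303 cells without and 72.8 [67.5, 78.4] in the 615 with such a UMI, and these intervals do not. The fibroblast markers, none of 8 at 0, summed to 135 CPM in the Cd163 gate (Col3a1 most, 52.5) and 78.1 in the Trem2 gate. In the whole monocyte-macrophage class they summed to 96.1 (Col3a1 most, 40.6). Dendritic markers summed to 115 CPM in the Cd163 and 20.1 in the Trem2 gate. B lineage markers summed to 71.2 and 24.7, endothelial to 132 and 75.2 and neutrophil to 237 and 316. The part of these markers in the C4b levels was not tested. C4b UMIs per C3 UMI were 0.727 in the Cd163 gate, 0.213 in fibroblasts and 0.0403 in the Trem2 gate.

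**Figure D2:**
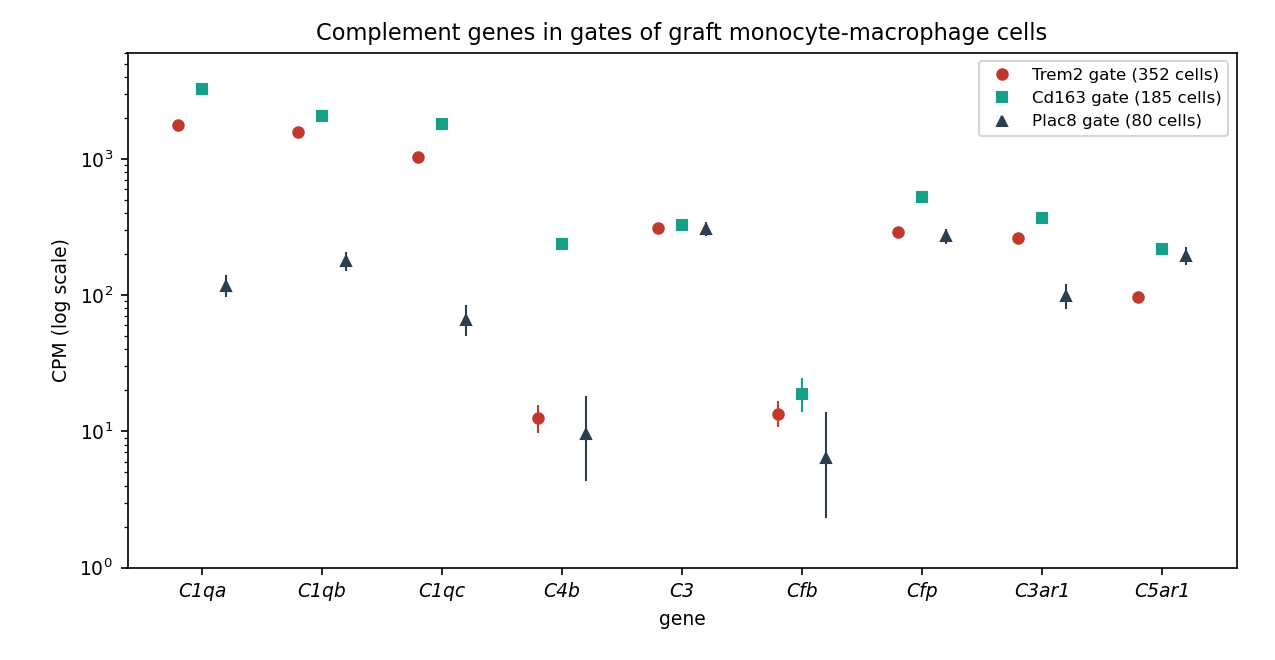
Levels of the 9 genes in CPM (log scale) in 3 gates of graft monocyte-macrophage cells, with exact 95% Poisson intervals. C1qa spans 118 to 3272 CPM across the gates and C4b 9.53 to 237, while C3 lies between 307 and 325.

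VD3 over untreated, the monocyte-macrophage class of the cultures (2182 and 1643 cells) was higher in C3 and all C1q chains and lower in C3ar1. C3 rose from 133 CPM [130, 136] in Co-Mac to 712 [702, 721] in VD-Mac, a log2 difference of 2.42 [2.38, 2.46]. C1qa rose from 265 to 691 CPM (1.38 [1.35, 1.41]), C1qb from 589 to 1206 (1.03 [1.01, 1.06]) and C1qc from 205 to 422 (1.04 [1.00, 1.07]). The last 2 lie at the 2-fold line, and with cells classed by number of markers they came to 0.97 and 0.98 and were not called. At a score margin of 0.25 C1qb, at 0.997, was not called either. C3ar1 fell from 43.3 CPM [41.6, 45.1] to 11.03 [9.91, 12.3], a difference of -1.97 [-2.14, -1.81]. C5ar1 was at 34.2 and 48.3 CPM (0.50) and Cfp at 471 and 509 (0.11), neither called. C4b (0.160 and 0.284 CPM) and Cfb (1.27 and 1.76) stayed below 10 CPM in both cultures. Of the 7 members at 10 CPM, 4 were up (3.39% of genes) and 1 was down (5.12%), and their median was 1.03 beside -0.09 over all genes. Markers of other classes moved too: B lineage markers summed to 5.93 CPM in Co-Mac and 60.2 in VD-Mac cells of the class (Ighm 5.45 and 59.6), with a UMI of them in 10.5% and 43.8% of cells, dendritic markers to 80.8 and 63.3 (Ccl22 50.3 and 29.4) and neutrophil markers to 383 and 266 (S100a8 326 and 215). Their part in these differences was not tested.

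Shares of cells moved with the levels. After thinning, C3 was found in 25.3% of Co-Mac [23.5, 27.2] and 59.4% of VD-Mac [57.0, 61.8] monocyte-macrophage cells, and C3ar1 in 8.59% [7.45, 9.85] and 2.44% [1.75, 3.31]. C1qa was found in 21.1% and 36.8%, C1qb in 41.0% and 55.4% and C1qc in 23.0% and 38.1%. The share with C3 or C1q was thus larger after VD3 and that with C3ar1 smaller, with no overlap of intervals. All 3 C1q chains were found together in 11.4% and 25.9% of cells. The median depths were 21941.5 and 17014 UMIs, and the cultures held too few T cells (4 and 3) for a background of their own. The graft T shares for C3 (6.11%) and C3ar1 (0.382%) come from another library.

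Cells of the class without a C1q UMI after thinning also held more C3 in VD-Mac, a split chosen after values were seen. C3 was at 145 CPM in the 1149 such cells of Co-Mac and 597 in the 658 of VD-Mac, and in cells with all 3 chains at 135 and 789. In the Trem2 gate of the cultures (1857 and 1464 cells) C3 differed by 2.50 [2.46, 2.54] and C1qa by 1.29 [1.26, 1.32], 2 up (3.4% of genes), and C3ar1 fell from 43.6 to 10.9 CPM, 1 down (5.17%). This gate held 1857 of the 2182 Co-Mac and 1464 of the 1643 VD-Mac cells of the class, so its values largely repeat those of the class. It was compared between cultures after values were seen. C1qb at 0.95 and C1qc at 0.96 were just short of the call there.

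Over all kept cells the differences of C3, C3ar1 and the C1q chains were smaller. C3 rose from 104 to 344 CPM (1.72 [1.69, 1.75]) and C3ar1 fell from 28.4 to 8.47 (-1.75 [-1.85, -1.65]), 1 up (2.16% of genes) and 1 down (4.63%) of 7 members. C1qa was at 129 and 251 CPM (0.97), C1qb at 297 and 445 (0.59), C1qc at 103 and 157 (0.60), Cfp at 286 and 255 (-0.16) and C5ar1 at 22.3 and 23.2 (0.06). The median was 0.59 beside -0.10. Cfp, which was not called, ranged from -0.16 to 0.16 over 8 alternatives and kept its sign in 6. The monocyte-macrophage class gave 42.3% of Co-Mac but 27.2% of VD-Mac UMIs, and with VD-Mac classes weighted to the Co-Mac make-up C1qa came to 1.41, C1qb to 1.02, C1qc to 1.04 and C3 to 2.03. Under a mitochondrial limit of 5% the C3 difference over all cells was 0.86 [0.80, 0.92] and no longer called, while that of C1qa was 1.15 [1.07, 1.24] and called up. That limit kept 43.1% of Co-Mac and 41.0% of VD-Mac cells, and only 23.6% of the Co-Mac and 13.2% of the VD-Mac monocyte-macrophage class. Below the limit C3 was at 106 CPM in Co-Mac and 192 in VD-Mac, and in cells between 5% and 10% at 103 and 383. The monocyte-macrophage class had median mitochondrial shares of 5.85% and 6.76%. With cells under the limit scored and classed anew, an alternative chosen after seeing the data, C3 differed in the monocyte-macrophage class by 2.12, C1qa by 1.75 and C3ar1 by -1.65.

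In the dendritic class, C3 rose from 24.9 to 84.1 CPM (1.75 [1.66, 1.85]) and C1qa from 9.07 to 26.2 (1.53 [1.37, 1.70]), 2 of 6 members up (2.24% of genes), and C3ar1 fell from 10.2 to 4.21 (-1.28 [-1.52, -1.04]), 1 down (2.64%). C1qb was at 26.1 and 48.9 CPM and Cfp at 45.3 and 47.5. The median was 0.85 beside 0.05. Over 9 alternatives C1qb (0.91) ranged from -0.09 to 0.91 and C1qc (0.80) from -0.32 to 0.96, each with the same sign in 8. Macrophage markers moved with the C1q and C3 levels within the class: C1qa was at 153 CPM in the 270 VD-Mac cells with 3 or more of these 8 markers and at 4.98 in the 586 with none, and 1090 of its 1321 UMIs lay in those 270 cells. The C1qa call was lost with second-class cells left out (1.68) and with class by number of markers (1.44), in both cases at levels below 10 CPM. In Co-Mac C1qa was at 53.0 CPM in the 221 cells with 3 or more and at 1.66 in the 823 with none. For C3 these levels were 246 and 47.0 CPM in VD-Mac and 68.8 and 8.81 in Co-Mac. Both genes were thus higher in VD-Mac at both ends of this split, which was chosen after values were seen. In cells with none of the markers, C1qa rested on 17 UMIs in Co-Mac [0.97, 2.66] and 32 in VD-Mac [3.41, 7.03]. Both C1qa levels lie below 10 CPM, and the part of free RNA in them was not tested. The 8 macrophage markers, none at 0, summed to 143 CPM in Co-Mac and 188 in VD-Mac dendritic cells (Lgmn most, 68.5 and 124), and their part in the C1qa difference was not tested. With cells under the 5% limit classed anew C1qa differed by 0.37 and was not called, while C3 differed by 1.14. In the cells of the original class under that limit C1qa was at 5.98 CPM in Co-Mac and 9.86 in VD-Mac. The C3ar1 level of Co-Mac lies at the 10 CPM line. Its call was lost at margin 0.25 (-1.26), with class by number of markers (-1.44), with second-class cells left out (-1.40), with the mean over cells (-1.31), at a minimum of 50 CPM and under the 5% limit (-1.59), each time on level and not on fold.

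In the neutrophil class (379 and 466 cells), C3 was at 340 and 488 CPM (0.52), Cfp at 323 and 532 (0.72), C5ar1 at 84.8 and 98.99 (0.22) and C3ar1 at 34.0 and 21.6 (-0.65), none called. The C1q chains were up, 3 of 7 members (4.63% of genes), with 0 down (5.37%): C1qa from 11.3 to 39.7 CPM, C1qb from 14.8 to 53.7 and C1qc from 3.09 to 22.0. The median was 0.72 beside 0.02. These C1q calls rest on few cells. Of 99 C1qa UMIs in VD-Mac neutrophils 87 lay in 28 cells with 3 or more macrophage markers, and of 33 in Co-Mac 31 lay in 62 such cells. A single cell held 53 of the 99, which lay in 16 cells in all, and another 29 of the 33, which lay in 5. For C1qb a single cell held 57 of 134 UMIs in VD-Mac and 27 of 43 in Co-Mac. The macrophage markers, none of 8 at 0, summed to 279 CPM in Co-Mac and 277 in VD-Mac neutrophils (Csf1r most, 101 and 116). With cells that hold markers of a second class left out 0 members were called, though C1qa differed by 2.98 [0.13, 8.44] and C1qc by 1.81 [-1.52, 7.44], both below 10 CPM in each culture, and C1qb by 0.35 [-0.84, 1.61]. With cells under the 5% limit classed anew the differences were -1.28 for C1qa, -0.72 for C1qb and -0.77 for C1qc. Doublets were not called by a dedicated tool.

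**Figure D3:**
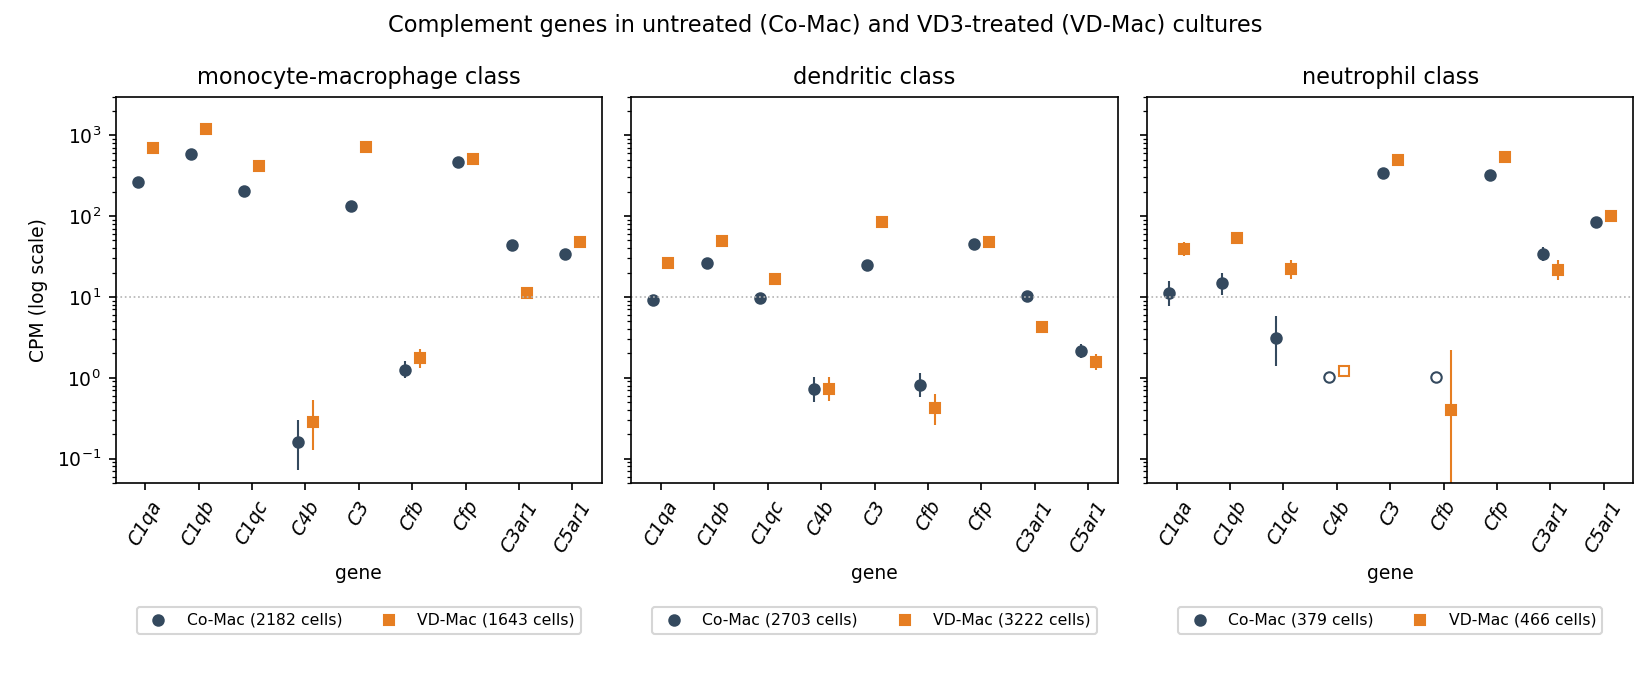
Levels of the 9 genes in CPM (log scale) in 3 classes of Co-Mac (untreated) and VD-Mac (VD3), with exact 95% Poisson intervals; the dotted line is 10 CPM and open points mark counts of 0 and stand at the level of 3 UMIs. In the monocyte-macrophage class C3 is at 133 CPM in Co-Mac and 712 in VD-Mac, and C3ar1 at 43.3 and 11.03.

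UMI ratios among the C1q chains differed between libraries, except for C1qc per C1qb between the cultures. UMIs of C1qa per UMI of C1qb in the monocyte-macrophage class were 0.449 in Co-Mac, 0.573 in VD-Mac and 1.27 in hSTSG, and C1qc per C1qb 0.349, 0.349 and 0.731. These UMI ratios, chosen after values were seen, are compared across libraries and gates, never between genes, and are no measure of chain amounts. Both were higher in the graft than in either culture, and within the graft C1qa per C1qb was 1.59 in the Cd163, 1.11 in the Trem2 and 0.665 in the Plac8 gate.

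The graft and culture monocyte-macrophage classes also differed in other members. C3ar1 was at 276 CPM in hSTSG against 43.3 and 11.03 in Co-Mac and VD-Mac, and C4b at 67.5 against 0.160 and 0.284. C3 at 337 CPM lay between the untreated and VD3 levels of 133 and 712. Tissue, host, dissociation and library cannot be told apart in these differences.

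Across the 16 classes with at least 20 cells, the genes most like each member, among those with at least 50 CPM in 1 class, by Pearson r of log2(CPM + 5) were as follows, as a description over points that share libraries. C1qa was most like C1qc (0.988), C1qb (0.973) and the platelet factor gene Pf4 (0.945). C3 was most like Hp (0.890), Dram1 (0.863) and Sod2 (0.844), C3ar1 like Rnf128 (0.834), Atp6v0a1 (0.829) and Lrp12 (0.821), and C5ar1 like Cd300lf (0.941), Clec4e (0.927) and Cd300lb (0.917). Cfp was most like Lpcat2 (0.939), Csf2ra (0.925) and Ftl1 (0.919). Lpar1 and Olfml3 stood among the top 3 of Cfb (0.993 and 0.983) and of C4b (0.968 and 0.973), with Bdh2 (0.985) for Cfb and Vasn (0.980) for C4b. Cfb was at 150.5 CPM in graft fibroblasts and at most 13.4 in the other classes, and C4b at 1300 and at most 67.5. The fibroblast class thus weighs heavily in the r values of Cfb and C4b.

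Of 39 other complement genes considered, 21 reached 10 CPM in a class, and 6 of these were highest in graft fibroblasts. Serping1, which encodes the C1 inhibitor, was at 2445 CPM in fibroblasts and 3.56 in monocyte-macrophage cells, the protease genes C1s1 at 847 and 3.41 and C1ra at 582 and 9.61, and C2 at 105 and 0.852. The lectin gene Colec12 was at 93.5 and 3.64. Cd55, a regulator of C3 convertases, was at 186 and 13.8, and highest at 198 [151, 254] in Co-Mac mast or basophil cells. That interval holds the fibroblast level, so the order of these classes is not resolved. Fibroblasts of the graft thus held transcripts for proteases and inhibitors of the classical route beside C4b and C3. Fibroblast over monocyte-macrophage, 9 were up (21.2% of all genes) and 7 down (23.7%) of 18, with a median of 2.18 beside -0.20. Down were the receptor integrins Itgam (3.95 and 312 CPM), Itgb2 (4.52 and 371) and Itgax (0.847 and 147), and Cd93 (1.69 and 82.2), which was highest in the endothelial class at 906. Clu was at 191 CPM in endothelial cells, Cd59a at 59.4, Calr at most at 1868 and Cr1l at 97.9, the last 2 in culture mast or basophil cells, and Fcnb was highest at 53.1 in Co-Mac neutrophil precursors. Mbl1 and Mbl2 had no UMI.

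In the Cd163 over Trem2 gate contrast 4 of 11 other genes were up (9.96% of all genes) and 2 down (4.94%). Up were Fcna (157 and 10.3 CPM), C6 (82.6 and 1.49), Cd55 (52.5 and 0.997) and C5ar2 (25.9 and 5.81), and down Itgax (8.75 and 279) and Itgb2 (131 and 568). Fcna, C6 and C5ar2 were named after their values were seen. Summed over its cells, the Cd163 gate held C4b and transcripts of the lectin route (Fcna), the lytic complex (C6) and the regulator Cd55. A C4b UMI was found in 94 of its 185 cells, and whether the same cells held the other genes was not tested.

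Between the cultures, 0 of 7 other complement genes at 10 CPM were up over all cells (2.16% of all genes) and 1 was down (4.63%), too few to set against those shares: Itgam, a chain of complement receptor 3, from 198 to 52.4 CPM (-1.92 [-1.96, -1.88]). With the mean over cells it came to -0.99 and under 5% mitochondrial UMIs to -0.78, neither called. The median was -0.71 beside -0.10. Itgam also fell in the monocyte-macrophage class, from 348 to 77.4 CPM (-2.17), alongside C3ar1. Over all cells its partner Itgb2 was at 192 and 136 CPM, Itgax at 146 and 77.8 and Calr at 568 and 296, none called.

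C1qa, C1qb and C1qc lie side by side on chromosome 4 on the same strand. Windows of 300 bases around gene starts (RefSeq, GRCm38.p6) were available for 6 members. Those of C1qb, C1qc and C3, which rose together in the monocyte-macrophage class, and of C3ar1, which fell, are shown 5′ to 3′, with motif matches in capitals.
C1qb, chr4:136886151-136886450, minus strand: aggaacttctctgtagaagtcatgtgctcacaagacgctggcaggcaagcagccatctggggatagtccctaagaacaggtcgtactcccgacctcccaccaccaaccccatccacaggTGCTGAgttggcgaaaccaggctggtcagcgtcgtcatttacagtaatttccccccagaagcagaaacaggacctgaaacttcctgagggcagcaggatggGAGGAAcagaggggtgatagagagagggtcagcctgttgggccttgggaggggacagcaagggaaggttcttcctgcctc
C1qc, chr4:136892865-136893164, minus strand: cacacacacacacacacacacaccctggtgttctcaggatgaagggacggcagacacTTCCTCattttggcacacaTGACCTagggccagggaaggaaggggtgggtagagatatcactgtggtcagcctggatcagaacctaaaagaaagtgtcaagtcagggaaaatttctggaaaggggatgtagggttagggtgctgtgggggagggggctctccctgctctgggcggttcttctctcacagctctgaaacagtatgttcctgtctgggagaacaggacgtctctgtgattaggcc
C3, chr17:57228087-57228386, minus strand: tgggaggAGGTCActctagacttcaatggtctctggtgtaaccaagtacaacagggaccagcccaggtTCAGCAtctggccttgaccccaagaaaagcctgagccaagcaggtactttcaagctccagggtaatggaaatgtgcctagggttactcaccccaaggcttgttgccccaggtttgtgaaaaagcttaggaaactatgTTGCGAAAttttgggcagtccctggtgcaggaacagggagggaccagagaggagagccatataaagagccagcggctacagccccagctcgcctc
C3ar1, chr6:122856108-122856407, minus strand: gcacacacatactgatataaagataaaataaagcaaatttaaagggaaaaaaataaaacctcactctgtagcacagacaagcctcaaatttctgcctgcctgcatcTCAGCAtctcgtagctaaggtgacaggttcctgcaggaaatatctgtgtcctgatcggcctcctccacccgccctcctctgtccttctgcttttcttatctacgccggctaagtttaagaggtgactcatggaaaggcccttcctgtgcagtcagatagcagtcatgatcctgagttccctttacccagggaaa
The motifs were searched on both strands and the matches shown do not overlap. Searched were GAGGAA (PU.1, in 28.3% of 32851 promoters), TTGCNNAA (C/EBP, 10.8%) and TTCNNNGAA (GAS, 8.30%). TGCTGA (19.5%), called MAF below, is only part of a MAF site. AGGTCA (16.3%) and AGTTCA (14.0%) are each only part of a nuclear receptor site. Matches to such parts are not matches to full sites. C1qb held the MAF and PU.1 letters, C1qc those of PU.1 and AGGTCA, C3 those of AGGTCA, MAF and C/EBP, and C3ar1 those of MAF only. No motif was in all 4 windows shown, and a match marks letters, not binding. Of the windows not shown, Cfp held the letters of PU.1 and AGGTCA and C5ar1 those of MAF. Neither gene was called between the cultures in the monocyte-macrophage class.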

How the data were processed

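Mouse cells of 3 libraries (10x 3′ v3) were measured, 1 library per condition. The authors deposited UMI counts per gene and barcode in the unit count, with 0 unmatched columns. The submitters' notes name Cell Ranger (file header 3.1.0), Seurat 3.1.1 and build mm9, while the study's methods name a human genome; the files hold mouse gene IDs with no build, 31011 of 31053 of them in GENCODE M21, and the authors' build is unsettled. The 9 members and all lists were chosen with earlier results of these data known. Named genes were the 9 members, other listed complement genes called between the cultures or with the highest CPM in a class up to 15, and the 3 genes most like each of 7 members. Outside this rule, Fcna, C6 and C5ar2 were named after their values were seen, and Mbl1 and Mbl2 as genes with no UMI. The list of other complement genes was shortened after results were seen, to 40 genes of which 39 are in the files.

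Barcodes with at least 300 genes, under 100000 gene UMIs and under 10% mitochondrial UMIs were kept: 7257 of 7866 in Co-Mac, 8825 of 9794 in VD-Mac and 2144 of 2644 in hSTSG, with 132574308, 116461484 and 22646544 UMIs, so 3 UMIs are 0.0226, 0.0258 and 0.132 CPM. Hashtag counts (1195935 in hSTSG) were not used. Each of 11 classes had 8 markers. A marker's log(1 + UMIs per 10000) was divided by its 99th percentile and capped at 1, a class score was the mean of its 4 highest markers, and a cell joined the top class with at least 3 markers detected and a lead of 0.15. Classes of at least 20 cells were described and of at least 50 in both cultures compared. Counts were summed over a class and scaled to CPM. Levels have exact Poisson intervals, ratios conditional binomial and shares Clopper-Pearson ones. A count of 0 was set to 3 for ratios, and nothing was called where both counts were 3 or less. Shares used cells thinned to 2000 UMIs with a fixed seed, which left out 5, 7 and 47 monocyte-macrophage cells of Co-Mac, VD-Mac and hSTSG, 2 T cells and 156 graft neutrophils. The code was tested on simulated data. Python 3.11.15, numpy 2.4.6, scipy 1.17.1, pandas 2.3.3 and matplotlib 3.10.9 were used. Alternatives changed the filters, score margin, class rule, scaling, averaging, class make-up, call rule and thinning.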

Additional observations from a re-analysis of the deposited data

How the results depend on the processing

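No paired analysis between conditions was possible because each was 1 library. Classes were not paired by graft mouse, because hashtag counts were not used. Within the monocyte-macrophage class all alternatives kept the direction of C3 (2.12 to 2.57), C1qa (1.34 to 1.75) and C3ar1 (-2.03 to -1.65), and all 5 alternatives of the graft contrast kept every member's direction. Over all cells C3 ranged from 0.86 to 2.03 and C3ar1 from -1.75 to -1.19. The median log2 difference that the median-of-ratios scaling removes was -0.09. The following counts of called genes changed, and the cause was not tested unless given. At margin 0.25, C1qb in the monocyte-macrophage class (0.997) lost its call, and 0 members were down in the dendritic (C3ar1 -1.26) and 1 up in the neutrophil class (C1qa 2.47, C1qb 1.54, C1qc 2.88). With class by number of markers, 2 were up in the monocyte-macrophage, 1 up and 0 down in the dendritic (C1qa 1.44, C3ar1 -1.44) and 0 up in the neutrophil class (C1qa 1.29, C1qb 0.32, C1qc 1.39). In these 2 settings members over 2-fold without a call were below 10 CPM. With second-class cells left out, 1 was up and 0 down in the dendritic and 0 up in the neutrophil class, while dendritic C1qa (1.68) and C3ar1 (-1.40) and neutrophil C1qa (2.98) and C1qc (1.81) kept a difference over 2-fold at levels below 10 CPM. With the mean over cells, 2 members were up over all cells (C1qa 1.09, C3 1.18), 0 other complement genes were down (Itgam -0.99), 0 members were down in the dendritic (C3ar1 -1.31) and 1 up in the neutrophil class (C1qa 1.57, C1qb 0.35, C1qc also over 2-fold). At 1.5-fold, 4 members were up and 4 other complement genes down over all cells, 465 genes were up and 984 down against 167 and 358, and 4 members were up in the dendritic and 4 up and 1 down in the neutrophil class. At a minimum of 50 CPM, 0 members were down over all cells, in the monocyte-macrophage and in the dendritic class, since C3ar1 is below that level, 1 was up in the dendritic and 1 in the neutrophil class, and 75 genes were up and 140 down. With no minimum, 4 other complement genes were up and 5 down, and 1135 genes up and 1700 down. With the median of ratios 2 members were up over all cells (C1qa 1.06), and with the Co-Mac class make-up 4. Under 5% mitochondrial UMIs 2 other complement genes were down, without Itgam (-0.78). The same limit within classes scored anew, chosen after seeing the data, gave 1 up and 0 down in the dendritic and 0 up and 1 down in the neutrophil class, where C1qa (-1.28), C1qb (-0.72) and C1qc (-0.77) reversed. Only 1 library a condition, free RNA, doublets and the cells without a class limit every comparison, and genes near 10 CPM or 2-fold change their call with the settings.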

Other observations

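C3ar1 in the mast or basophil class of the cultures, whose 22 and 31 cells were too few for a ratio, was at 46.1 CPM [25.2, 77.4] in Co-Mac and 80.4 [51.0, 121] in VD-Mac. C3 in the neutrophil precursor class, with 52 and 43 cells, was at 252 CPM [227, 278] and 469 [424, 518]. In graft monocyte-macrophage cells split by C1q UMIs after thinning, a split chosen after values were seen, C3ar1 was at 159 CPM in the 216 cells with none, 250.2 in the 214 with 1 or 2 chains and 335 in the 441 with all 3, and C4b at 14.7, 15.6 and 110.2. Over the same split the macrophage marker Adgre1 was at 97.2, 149.8 and 283 CPM and Pf4 at 374, 1283 and 1799. The part of macrophage markers in these differences was not tested.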
